A study of Homo sapiens with 16 samples.

Results

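The genes described here are 42 genes of autophagy and the lysosome, taken by their symbols. They are 19 genes of the autophagosome, 9 lysosomal hydrolases, 7 genes of the lysosomal membrane and its proton pump, and 7 regulators. Each of the 42 had at least 1 probe set that carries its symbol and no other, and the brightest of these was used. They are 42 of the 22395 genes measured in this way, and all 42 were bright enough to be among the 15676 genes tested, which are the upper 70% by mean level.

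RNA of DLD1 and HCT116, both long-established lines from human colorectal carcinomas, was measured on Affymetrix whole-transcript arrays. The study used 2 derivatives of each line, which differ in their allele of PIK3CA, whose product, p110-alpha, is a lipid kinase that signals to AKT and mTORC1. Mut cells had lost the WT allele by knockout and kept the mutant one, and WT cells had lost the mutant allele. Each derivative was kept for 24 h with glutamine (+Gln) or without it (-Gln), and all groups were in DMEM with 10% dialyzed fetal bovine serum. This gave 8 groups (DLD1 Mut, DLD1 WT, HCT116 Mut and HCT116 WT, each +Gln and -Gln) of 2 biological replicates, 16 arrays in all. The labels name 1 derivative per genotype and line, so a difference between Mut and WT cells and a difference between those 2 derivatives cannot be told apart.

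In autophagy a membrane sheet grows around a portion of cytoplasm, closes into an autophagosome and fuses with the lysosome, where hydrolases degrade the contents and release amino acids. The ULK1 kinase complex and the phosphatidylinositol 3-kinase complex of BECN1 start the sheet, and a conjugation system attaches ATG8 proteins (the LC3 and GABARAP families) to it, to which cargo receptors bind. The kinase mTORC1 sits on the lysosome when amino acids are plentiful, holds ULK1 back and keeps the transcription factors TFEB, TFE3 and MITF in the cytoplasm. When mTORC1 is inactive these factors enter the nucleus and act on E-box elements of lysosomal and autophagy genes.

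Depth is not a quantity of arrays, and their number limits the precision. Median intensities lay between 3.57 and 3.70 on all 16 arrays, and the 2 arrays of each group had a Pearson r of 0.989 to 0.992 over the 15676 genes tested, which do not count as replicates. Over the 42 genes replicates differed by a median of 0.10 on the log2 scale, and the largest difference was 1.04 (TFEB, HCT116 Mut -Gln). All 10 markers of colon epithelium were bright enough to test, whereas 2 of 7 fibroblast markers (COL1A1 and THY1) and 1 of 7 leukocyte markers (FCER1G) were. The epithelial markers VIL1 (log2 of 1.44 to 3.22), CDX1 (2.06 to 3.15) and LGALS4 (2.39 to 3.62) were no brighter than COL1A1 (2.28 to 3.81). The log2 of the summed intensity of all 7 fibroblast markers was 4.51 to 4.73 with and 4.51 to 4.89 without glutamine, and that of all 7 leukocyte markers 3.94 to 4.99 and 4.06 to 4.47, dim ones included. For the 10 epithelial markers it was 11.61 to 12.86 and 11.55 to 12.70. On average over the 4 derivatives withdrawal raised CDH1 (0.19 ± 0.06) and KRT8 (0.58 ± 0.21) among the epithelial markers and lowered CDX2 (-0.63 ± 0.05) and VIL1 (-0.45 ± 0.08), and the part of this in the changes below was not tested.

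The first comparison asks how the genes respond to the withdrawal of glutamine. Values given as a change are log2 differences of mean log2 intensity (-Gln minus +Gln) ± SE from limma with 2 arrays a group, and a change is called where the Benjamini-Hochberg adjusted p over the 15676 genes is under 0.05. Genes of the autophagosome and most regulators rose, while some hydrolases rose and others fell, as members of the class of membrane and pump genes did. In these bulk cultures a change in the mix of cells and a change in RNA per cell cannot be told apart. Averaged over the 4 derivatives 28 of the 42 genes rose and 7 fell, beside 24.3% and 23.5% of all tested genes (47.7% in either direction). Of the 19 autophagosome genes 17 rose and none fell (median change 0.47), and at an unadjusted p under 0.05 the counts were 17 and 0. Of the 7 regulators 6 rose and none fell (median 0.71; 6 and 0 unadjusted). Of the 9 hydrolases 3 rose and 4 fell (median -0.12), and of the 7 membrane and pump genes 2 rose and 3 fell (median -0.06). The median over all tested genes was 0.00. The members were chosen with earlier results of these data known. Their shares beside those of all tested genes, here and below, are thus a description and cannot test whether these pathways respond more than others.

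**Figure D1:**
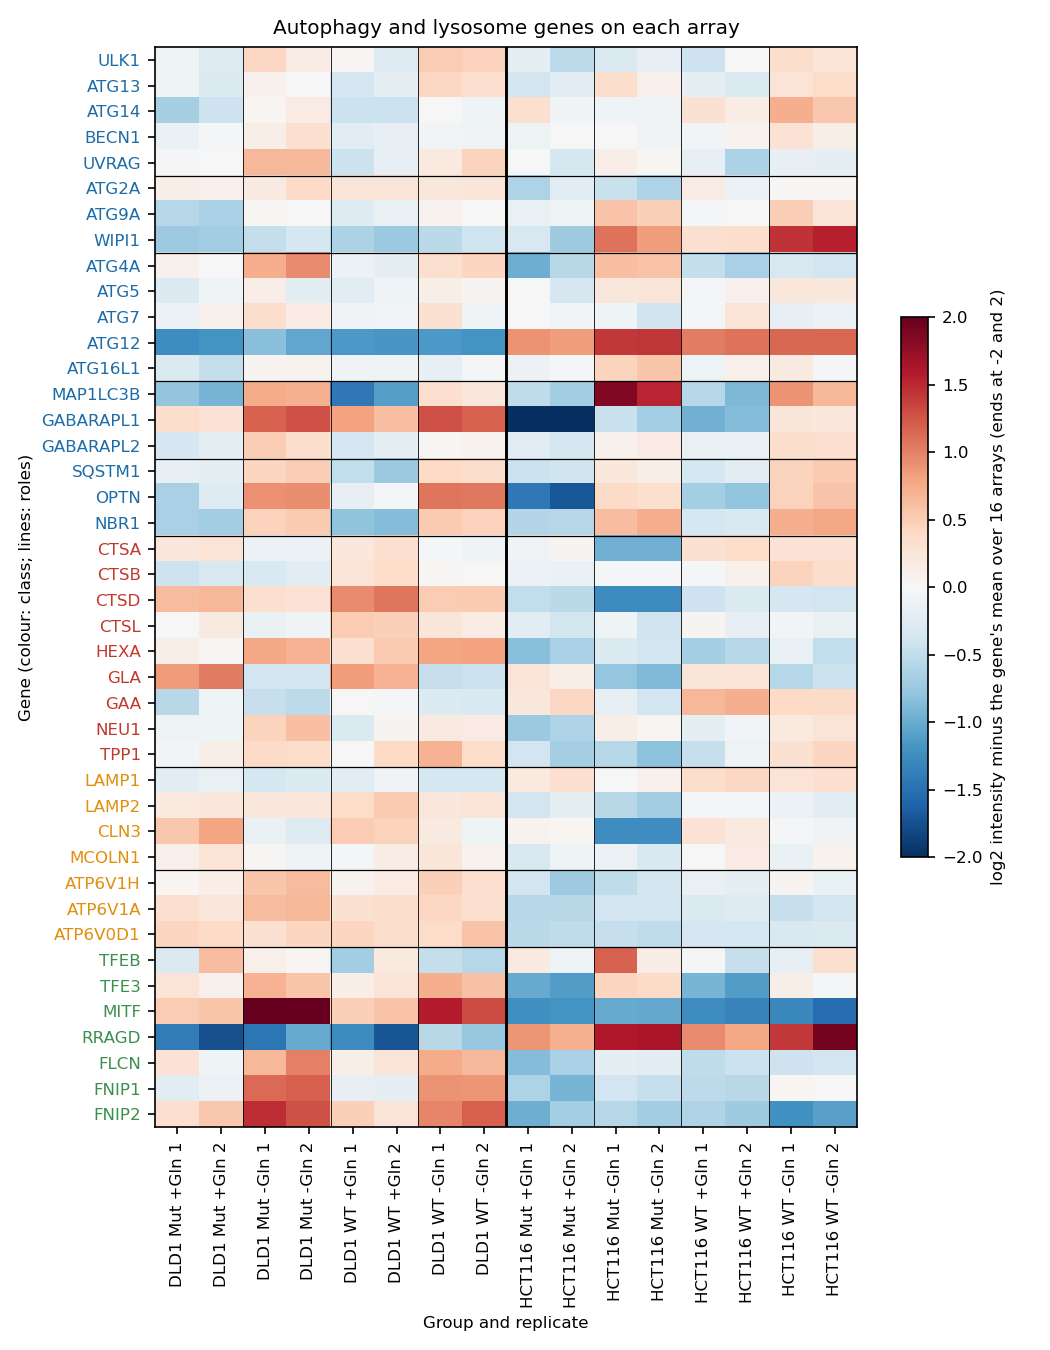
The log2 intensity of each of the 42 genes (rows, ordered by role) on each of the 16 arrays (columns), as the difference from that gene's mean over the arrays, on a colour scale that ends at -2 and 2. Columns -Gln are redder than columns +Gln for MAP1LC3B, OPTN and NBR1 in all 4 derivatives and bluer for GLA, and rows such as ATG12, MITF and RRAGD differ between DLD1 and HCT116 on every array.

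In single derivatives the share of members called in either direction was also above that of all tested genes, with the same limit from the choice of members. The share called higher was above it too. The share called lower (9.52%, 11.9%, 14.3% and 4.76% of members, in the order below) was below that of all tested genes. In DLD1 Mut cells 21 of the 42 genes rose and 4 fell (16.8% and 16.8% of all tested genes, 33.6% in all), and in DLD1 WT cells 17 rose and 5 fell (14% and 13%, 27% in all). In HCT116 Mut cells 19 rose and 6 fell (16.4% and 16.5%, 32.9% in all), and in HCT116 WT cells 14 rose and 2 fell (10.3% and 10.1%, 20.3% in all). All members but TFEB lay above the median level of all genes. Of the 11197 genes above that median, fitted alone, 5437, 4525, 5256 and 3608 were called in the 4 derivatives in this order. On average over the derivatives 7180 were. These are larger shares than those of all tested genes, which include dimmer genes in every comparison here. The 22 calls in DLD1 WT cells were 14 without replicate 1 of DLD1 WT +Gln and 13 without replicate 2 of DLD1 WT -Gln. Of the 19 autophagosome genes 12, 10, 13 and 9 rose in DLD1 Mut, DLD1 WT, HCT116 Mut and HCT116 WT cells, and none fell, also at an unadjusted p under 0.05. The members called higher in all 4 derivatives, as 3.54% of tested genes were, numbered 8: MAP1LC3B, GABARAPL1, GABARAPL2, SQSTM1, OPTN, NBR1, TFE3 and FNIP1. GLA was called lower in all 4, as 3.67% of tested genes were, and 8 members were called in none, as 45.6% of tested genes were. CTSB and FNIP2 were called higher in at least 1 derivative and lower in another, as 3.13% of tested genes were. MAP1LC3B, GABARAPL1, SQSTM1, OPTN, NBR1 and GLA kept these calls under every alternative listed in the processing summary, and the other 3 lost at least 1 of them with 1 array left out, as given below.

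**Figure D2:**
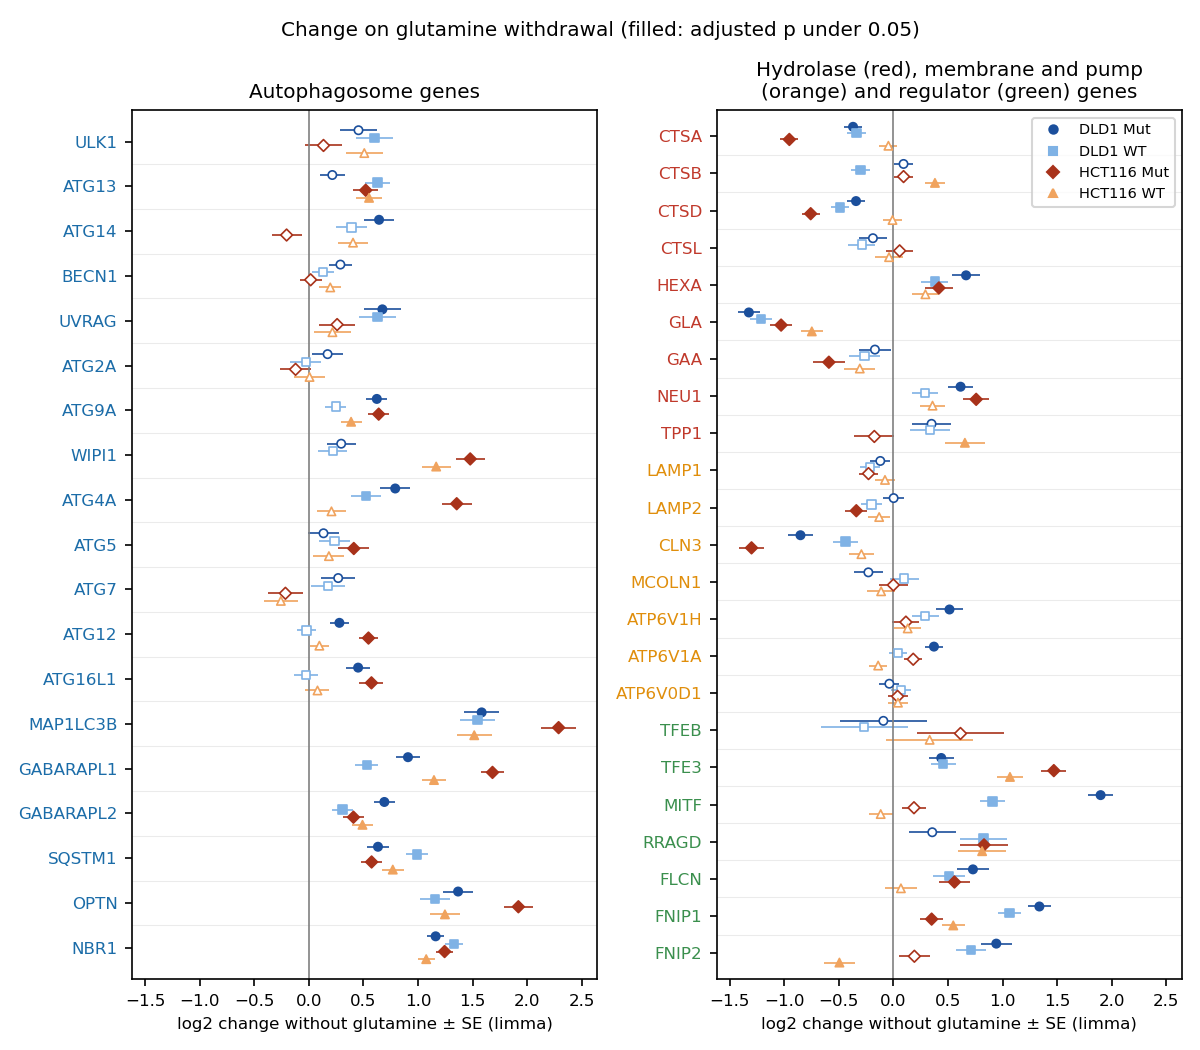
The log2 change on glutamine withdrawal (horizontal axis, with limma's SE as bars) of every gene in DLD1 Mut (circles), DLD1 WT (squares), HCT116 Mut (diamonds) and HCT116 WT cells (triangles), filled where called. The ATG8 proteins and cargo receptors (MAP1LC3B to NBR1) lie right of 0 in all 4 derivatives, while MITF, FNIP1 and FNIP2 lie farther right in DLD1 and WIPI1 and TFE3 farther right in HCT116.

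Promoter sequence was set beside these changes for the genes with a window in the RefSeq table used here (GRCh38.p14, from 250 bases before to 50 after each start), which 35 of the 42 genes had, with 46 windows. RRAGD, UVRAG, ATP6V1H, HEXA, CTSB, ATP6V1A and LAMP2 had no entry. The longer E-box TCACGTGA, which reads the same on both strands and contains the core CACGTG, lay in 7 of the 46 windows (15.2%) and in 344 of all 35116 windows (0.98%). The 6 members with it are all lysosomal, and 1 stretch of each is shown because this is the sequence type that the TFEB family is known to bind. Each is read 5′ to 3′ on the gene's strand, with the E-box in capitals.
CTSA (chr20:45891298-45891327, + strand): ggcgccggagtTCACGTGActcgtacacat
GAA (chr17:80101538-80101567, + strand): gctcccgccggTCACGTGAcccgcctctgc
LAMP1 (chr13:113297199-113297228, + strand): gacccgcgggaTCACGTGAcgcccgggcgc
CLN3 (chr16:28492058-28492087, - strand): cgcgggtgctgTCACGTGAtccgacaaacg
MCOLN1 (chr19:7522571-7522600, + strand): accagaggcggTCACGTGAggggctctggg
ATP6V0D1 (chr16:67481199-67481228, - strand): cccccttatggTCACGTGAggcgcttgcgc
GAA, LAMP1 and MCOLN1 have another such site in the same window, and overlapping windows of CLN3 hold the same site. None of the 8 genes called higher in all 4 derivatives has one there. On average over the 4 derivatives the changes of the 6 genes were -0.43 ± 0.04 for CTSA, -0.33 ± 0.07 for GAA, -0.16 ± 0.05 for LAMP1, -0.72 ± 0.06 for CLN3, -0.06 ± 0.07 for MCOLN1 and 0.03 ± 0.05 for ATP6V0D1, of which the first 4 were called. Of all tested genes, 231 have the longer E-box in a window, of which 83 (35.9%) rose and 72 (31.2%) fell, beside 26.3% and 24.9% of the 11735 tested genes with a window. Of 103 tested genes with a window among the other genes of these pathways described below, 9 have it. On average 2 of those rose and 2 fell.

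The core CACGTG lay in 11 of the 46 windows (23.9%) and in 7.26% of all windows, and the 10 members with it are the same 6 and CTSD, NEU1, ATG14 and FNIP1. FNIP1 is the 1 gene of these that was called higher in all 4 derivatives. The C/EBP-ATF element TGATGNAA, searched on both strands as the others were, lay in none of the 46 windows (3.62% of all), and the forkhead element TGTTTAC in 1, that of CTSL (3.42% of all). A match is a run of letters and not a measured binding site, and the absence of one says only that the letters are not in the window. For comparison of a gene that rose, a gene that fell and a gene with a core E-box in each direction, 120 bases before or near the start follow, with CACGTG in capitals.
MAP1LC3B (chr16:87392216-87392335, + strand): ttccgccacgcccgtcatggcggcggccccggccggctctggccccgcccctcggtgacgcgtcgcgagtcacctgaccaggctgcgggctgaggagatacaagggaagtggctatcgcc
FNIP1 (chr5:131797088-131797207, - strand): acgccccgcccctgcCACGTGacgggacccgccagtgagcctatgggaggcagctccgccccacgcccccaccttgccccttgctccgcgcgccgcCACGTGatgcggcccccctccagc
CTSD (chr11:1763928-1764047, - strand): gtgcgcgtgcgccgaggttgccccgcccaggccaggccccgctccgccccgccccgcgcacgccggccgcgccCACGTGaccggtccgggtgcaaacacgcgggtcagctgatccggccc
MAP1LC3B and FNIP1 rose in all 4 derivatives, and CTSD, which fell on average, is described with the hydrolases.

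**Figure D3:**
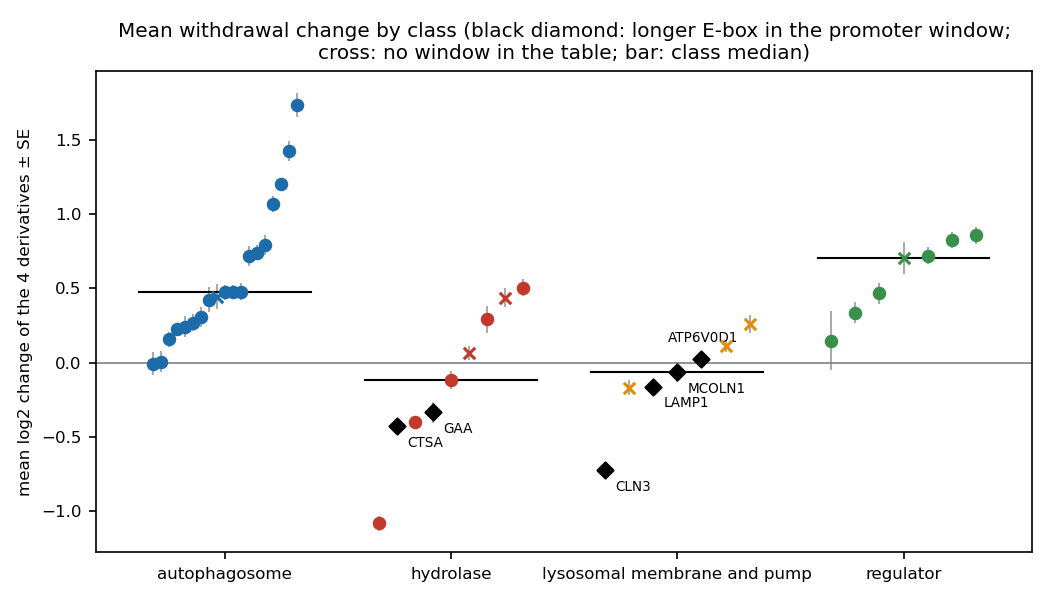
The mean log2 change over the 4 derivatives ± SE (vertical axis) of each gene, sorted within its class, with the class median as a bar. Genes with the longer E-box (black diamonds) are CTSA and GAA among hydrolases and LAMP1, CLN3, MCOLN1 and ATP6V0D1 among membrane and pump genes, at changes from -0.72 to 0.03, and crosses mark genes with no window.

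The 3 ATG8 proteins and the 3 cargo receptors each rose in all 4 derivatives, as 3.54% of tested genes did. MAP1LC3B encodes the LC3B protein that is conjugated to the autophagosome membrane. In DLD1 its log2 intensities were 2.75 and 2.61 in Mut and 2.12 and 2.44 in WT cells +Gln, and 4.28 and 4.25 in Mut and 3.88 and 3.77 in WT cells -Gln. In HCT116 they were 3.03 and 2.85 in Mut and 2.97 and 2.64 in WT cells +Gln, and 5.40 and 5.06 in Mut and 4.44 and 4.21 in WT cells -Gln. Every -Gln array was above every +Gln array, in both lines. The changes were 1.58 ± 0.16 and 1.54 ± 0.16 in DLD1 Mut and WT cells (adjusted p = 4.19e-05 and 7.38e-05) and 2.29 ± 0.16 and 1.51 ± 0.16 in HCT116 (adjusted p = 4.92e-06 and 0.000119), which in HCT116 Mut cells is 4.88-fold. With log2(intensity + 8) the changes were smaller, at 0.92 and 0.78 in DLD1 Mut and WT cells and 1.54 and 0.90 in HCT116, and all 4 were called. The gene has a near-identical copy, MAP1LC3B2, so its values are uncertain to the extent that the probes cannot separate them.

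GABARAPL1 encodes another ATG8 protein. Its levels in DLD1 were 6.40 and 6.34 in Mut and 6.86 and 6.66 in WT cells +Gln, and 7.22 and 7.33 in Mut and 7.34 and 7.24 in WT cells -Gln. In HCT116 they were 3.84 and 3.78 in Mut and 5.08 and 5.18 in WT cells +Gln, and 5.61 and 5.37 in Mut and 6.29 and 6.27 in WT cells -Gln. Thus the groups of each derivative did not overlap, all HCT116 arrays lay below all DLD1 arrays, and HCT116 Mut +Gln was the lowest group. The changes were 0.91 ± 0.11 and 0.53 ± 0.11 in DLD1 Mut and WT cells (adjusted p = 9.54e-05 and 0.00402) and 1.68 ± 0.11 and 1.15 ± 0.11 in HCT116 (adjusted p = 2.88e-06 and 4.67e-05). GABARAPL1 also has a near-identical copy, GABARAPL3, and is uncertain in the same way. GABARAPL2, the ATG8 protein also known as GATE-16, had smaller changes, of 0.69 ± 0.10, 0.31 ± 0.10, 0.41 ± 0.10 and 0.49 ± 0.10 in DLD1 Mut, DLD1 WT, HCT116 Mut and HCT116 WT cells. Its call in DLD1 WT cells was lost without replicate 1 of DLD1 WT +Gln (adjusted p = 0.197), without replicate 1 or 2 of DLD1 WT -Gln (0.0959 and 0.157) and without either array of HCT116 WT +Gln (0.0502), as well as with no filter (0.0655) and with each line fitted separately (0.0957). Its call in HCT116 Mut cells was lost without replicate 2 of the +Gln group (adjusted p = 0.0528) or of the -Gln group (0.0512).

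Of the cargo receptors, SQSTM1 (p62) binds ubiquitinated cargo and is itself degraded by autophagy. In DLD1 cells SQSTM1 was at 6.58 and 6.57 in Mut and 6.26 and 6.01 in WT cells +Gln, and at 7.18 and 7.24 in Mut and 7.15 and 7.10 in WT cells -Gln. In HCT116 cells it was at 6.33 and 6.36 in Mut and 6.40 and 6.54 in WT cells +Gln, and at 6.96 and 6.87 in Mut and 7.20 and 7.28 in WT cells -Gln. All 8 arrays -Gln were above all 8 arrays +Gln. The changes were 0.63 ± 0.10 and 0.99 ± 0.10 in DLD1 Mut and WT cells (adjusted p = 0.000609 and 5.46e-05) and 0.57 ± 0.10 and 0.77 ± 0.10 in HCT116 (adjusted p = 0.0012 and 0.000394).

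OPTN, a receptor for damaged mitochondria and bacteria, was at 6.08 and 6.47 in Mut and 6.55 and 6.70 in WT DLD1 cells +Gln, and at 7.63 and 7.65 in Mut and 7.79 and 7.77 in WT cells -Gln. In HCT116 OPTN was at 5.29 and 5.02 in Mut and 6.04 and 5.94 in WT cells +Gln, and at 7.11 and 7.04 in Mut and 7.18 and 7.29 in WT cells -Gln. All 8 arrays -Gln again lay above the +Gln arrays, and HCT116 Mut +Gln was the lowest group. Its changes were 1.37 ± 0.14 and 1.15 ± 0.14 in DLD1 Mut and WT cells (adjusted p = 3.34e-05 and 0.000144) and 1.92 ± 0.14 and 1.25 ± 0.14 in HCT116 (adjusted p = 4.86e-06 and 0.000129).

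NBR1, a receptor related to SQSTM1, rose in all 4 derivatives. Its levels +Gln were 7.97 and 7.93 in DLD1 Mut, 7.81 and 7.76 in DLD1 WT, 8.04 and 8.05 in HCT116 Mut and 8.27 and 8.31 in HCT116 WT cells. Without glutamine they were 9.08 and 9.14, 9.14 and 9.08, 9.23 and 9.34, and 9.34 and 9.39 in the same order. The changes of 1.16, 1.33, 1.24 and 1.07 (SE 0.08 each) were all called, and on average NBR1 rose 2.30-fold (1.20 ± 0.04, adjusted p = 8.43e-09).

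**Figure D4:**
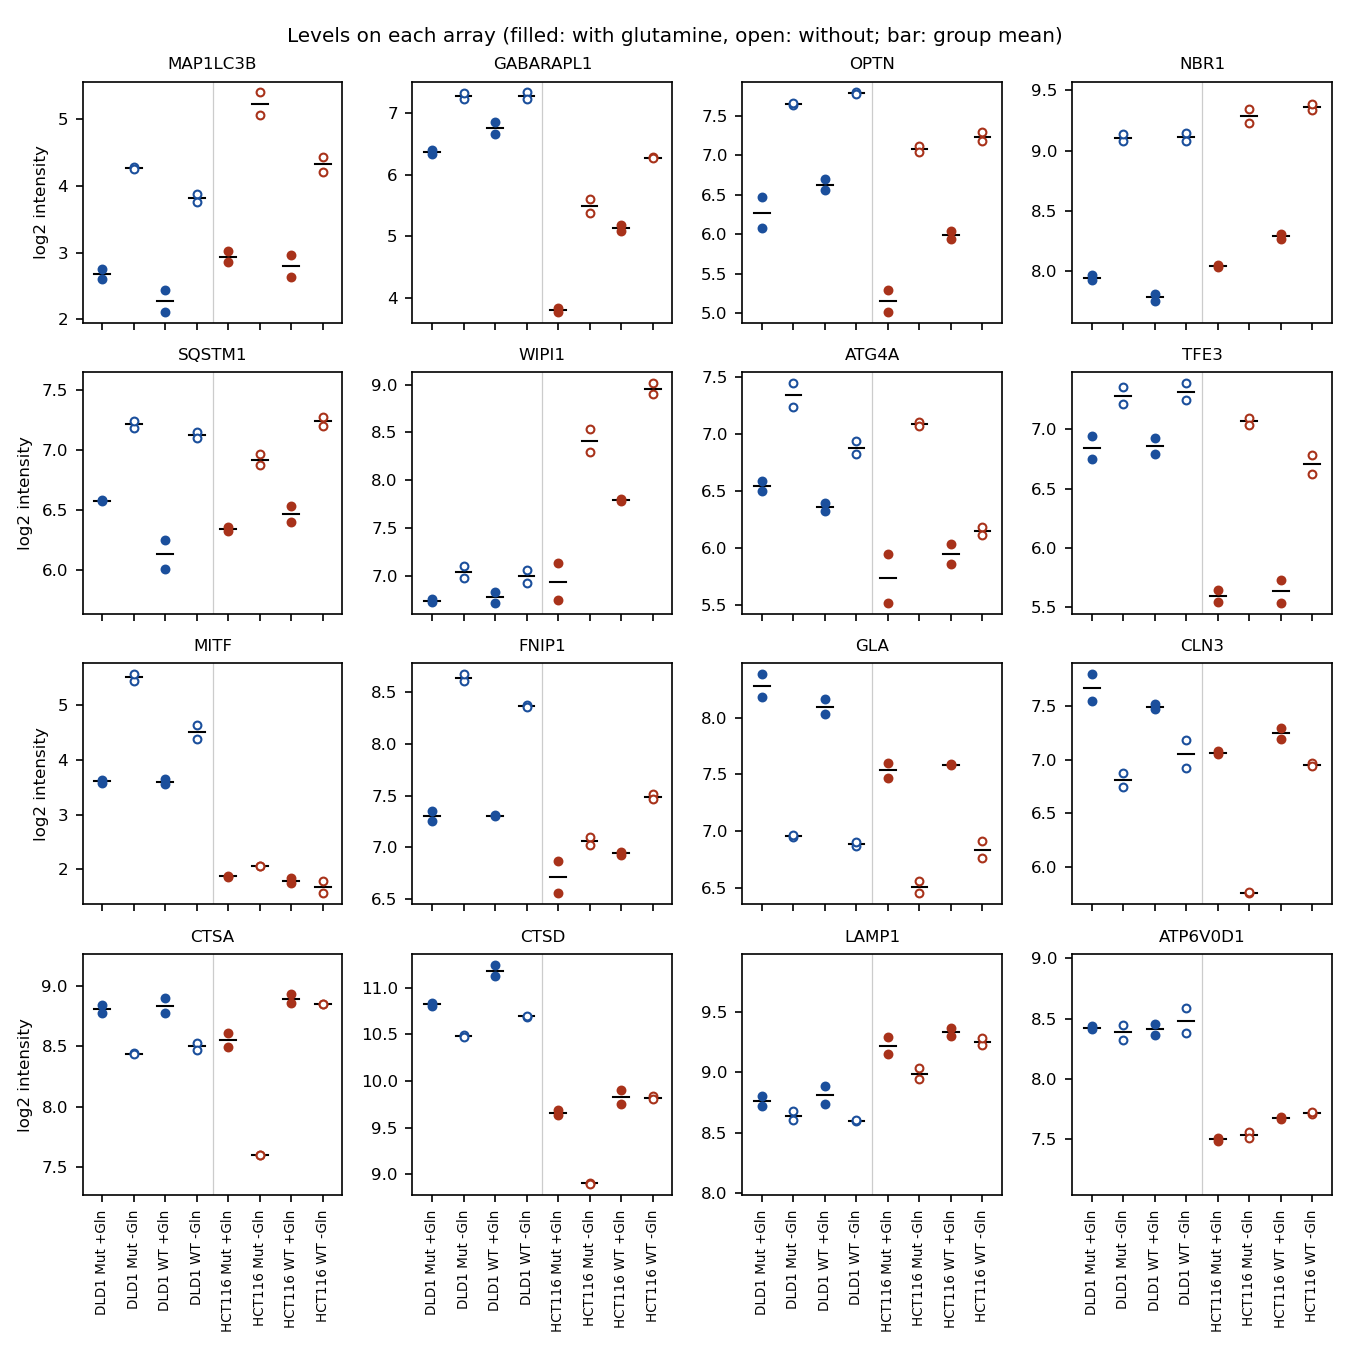
The log2 intensity (vertical axis, its range set for each gene) of 16 genes on each array, filled +Gln and open -Gln, blue for DLD1 and red for HCT116, with bars at the group means. The 8 open points of MAP1LC3B, SQSTM1, OPTN and NBR1 lie above the filled ones of both lines, while CTSA, CTSD and CLN3 are lowest in HCT116 Mut -Gln and MITF lies higher in DLD1 than in HCT116 on every array.

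Of the genes that start and extend the autophagosome membrane, all 5 genes of initiation rose on average, beside 24.3% of all tested genes. Their changes ran from 0.16 ± 0.05 for BECN1 to 0.48 ± 0.06 for ATG13, a subunit of the ULK1 complex. In each HCT116 derivative only ATG13 of these was called, and in HCT116 Mut cells ATG14 was at -0.20 ± 0.14 and BECN1 at 0.02 ± 0.10. UVRAG was called only in DLD1 cells and ATG14 only in DLD1 Mut cells. The call of BECN1 on average was lost in 7 of the 16 fits with 1 array left out, with an adjusted p of up to 0.0615: those without replicate 1 of DLD1 Mut +Gln, DLD1 WT +Gln, HCT116 Mut +Gln, HCT116 WT +Gln, HCT116 Mut -Gln or HCT116 WT -Gln, and without replicate 2 of DLD1 Mut -Gln. ULK1, the kinase that starts autophagy, was at 4.48 and 4.29 in Mut and 4.57 and 4.30 in WT DLD1 cells +Gln, and at 4.97 and 4.70 in Mut and 5.07 and 5.01 in WT cells -Gln. In HCT116 ULK1 was at 4.37 and 4.03 in Mut and 4.15 and 4.56 in WT cells +Gln, and at 4.27 and 4.40 in Mut and 4.91 and 4.81 in WT cells -Gln. The HCT116 Mut groups overlapped and the others did not. ULK1 rose on average (0.42 ± 0.08, adjusted p = 0.00158). Of single derivatives only DLD1 WT cells were called (0.60 ± 0.17, adjusted p = 0.0224), a call that was lost without replicate 2 of DLD1 WT +Gln (adjusted p = 0.145) or replicate 1 or 2 of DLD1 WT -Gln (0.101 and 0.0742). The changes in DLD1 Mut and HCT116 WT cells were 0.45 ± 0.17 and 0.51 ± 0.17 (adjusted p = 0.0617 and 0.0582). ULK1 was called in DLD1 Mut cells without either array of HCT116 WT +Gln (adjusted p = 0.0426) and in HCT116 WT cells without replicate 2 of that group (adjusted p = 0.0328).

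WIPI1, which reads the phosphatidylinositol 3-phosphate of the growing membrane, rose in HCT116 and was not called in DLD1. In DLD1 its levels were 6.72 and 6.75 in Mut and 6.82 and 6.72 in WT cells +Gln, and 6.97 and 7.10 in Mut and 6.92 and 7.06 in WT cells -Gln. In HCT116 they were 7.13 and 6.74 in Mut and 7.78 and 7.80 in WT cells +Gln, and 8.53 and 8.30 in Mut and 8.90 and 9.01 in WT cells -Gln. The HCT116 arrays -Gln were above all other arrays. The changes were 1.48 ± 0.13 and 1.17 ± 0.13 in HCT116 Mut and WT cells (adjusted p = 2.03e-05 and 0.000179) and 0.30 ± 0.13 and 0.22 ± 0.13 in DLD1 (adjusted p = 0.118 and 0.265). Among the other genes of membrane growth the lipid scramblase ATG9A rose on average (0.47 ± 0.05, adjusted p = 1.32e-05), and the lipid transporter ATG2A was at 0.01 ± 0.07. With the mean of the probe sets of ATG9A in place of the brightest, its average change was 0.20 and not called (adjusted p = 0.334).

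Of the conjugation genes, ATG4A, a protease that prepares ATG8 proteins, was at 6.59 and 6.51 in Mut and 6.39 and 6.33 in WT DLD1 cells +Gln, and at 7.23 and 7.45 in Mut and 6.82 and 6.94 in WT cells -Gln. In HCT116 ATG4A was at 5.52 and 5.95 in Mut and 6.03 and 5.86 in WT cells +Gln, and at 7.11 and 7.07 in Mut and 6.19 and 6.12 in WT cells -Gln. The largest step was that of HCT116 Mut cells (1.35 ± 0.14, adjusted p = 3.94e-05), and ATG4A was also called in DLD1 Mut cells (0.79 ± 0.14, adjusted p = 0.00112). In DLD1 WT cells (0.52 ± 0.14, adjusted p = 0.0162) the call was lost without replicate 1 or 2 of the +Gln group (adjusted p = 0.0524 and 0.0812) or replicate 2 of the -Gln group (0.0977), and in HCT116 WT cells the change was 0.21 ± 0.14. ATG12, the ubiquitin-like protein that is joined to ATG5, ATG5 itself and ATG16L1, which places the conjugate on the membrane, rose on average by 0.22 ± 0.04, 0.24 ± 0.07 and 0.27 ± 0.06. In DLD1 and HCT116 Mut cells ATG12 (0.28 and 0.55) and ATG16L1 (0.45 and 0.57) were called. In WT cells they were not (-0.02 and 0.10, and -0.02 and 0.08). The difference in response was not called for ATG16L1 in either line, nor for ATG12 in DLD1 (0.30 ± 0.12, adjusted p = 0.291). That of ATG12 in HCT116 is given below. Not every alternative kept the calls of ATG12 and ATG16L1 in DLD1 Mut cells. ATG5 was called in HCT116 Mut cells only (0.41 ± 0.14), a call that only 9 of 25 alternatives kept. Without replicate 2 of HCT116 Mut +Gln its change there was 0.23. ATG7, the activating enzyme of the system, was at -0.01 ± 0.08.

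The hydrolases did not move as a group. GLA, the alpha-galactosidase A that is deficient in Fabry disease, had the largest fall of all 42 genes on average, 2.11-fold (-1.08 ± 0.05, adjusted p = 6.16e-08). In DLD1 GLA was at 8.18 and 8.38 in Mut and 8.17 and 8.03 in WT cells +Gln, and at 6.95 and 6.97 in Mut and 6.87 and 6.90 in WT cells -Gln. In HCT116 it was at 7.60 and 7.47 in Mut and 7.58 and 7.59 in WT cells +Gln, and at 6.56 and 6.45 in Mut and 6.76 and 6.91 in WT cells -Gln. Every -Gln array was below every +Gln array, and the changes were -1.33, -1.21, -1.03 and -0.75 (SE 0.10 each) in DLD1 Mut, DLD1 WT, HCT116 Mut and HCT116 WT cells.

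CTSD, an abundant aspartic protease of the lysosome, was at 10.81 and 10.83 in Mut and 11.12 and 11.24 in WT DLD1 cells +Gln, and at 10.49 and 10.47 in Mut and 10.68 and 10.70 in WT cells -Gln. In HCT116 CTSD was at 9.68 and 9.64 in Mut and 9.76 and 9.91 in WT cells +Gln, and at 8.91 and 8.89 in Mut and 9.84 and 9.81 in WT cells -Gln. The groups of HCT116 WT cells overlapped and those of the other derivatives did not. It fell by 0.76 on the log2 scale in HCT116 Mut cells (SE 0.08, adjusted p = 7.21e-05) and was at -0.01 ± 0.08 in HCT116 WT cells. In DLD1 Mut and WT cells the changes were -0.34 ± 0.08 and -0.49 ± 0.08 (adjusted p = 0.00869 and 0.00149).

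CTSA, a carboxypeptidase that also protects the sialidase NEU1, was at 8.78 and 8.84 in Mut and 8.78 and 8.90 in WT DLD1 cells +Gln, and at 8.44 and 8.44 in Mut and 8.53 and 8.47 in WT cells -Gln. In HCT116 CTSA was at 8.49 and 8.61 in Mut and 8.86 and 8.93 in WT cells +Gln, and at 7.60 and 7.60 in Mut and 8.85 and 8.85 in WT cells -Gln. HCT116 Mut -Gln was below all other groups, with a change of -0.95 ± 0.08 (adjusted p = 1.69e-05), while the change in HCT116 WT cells was -0.05 ± 0.08. It also fell in DLD1 Mut cells (-0.37 ± 0.08, adjusted p = 0.00552). In DLD1 WT cells (-0.34 ± 0.08, adjusted p = 0.0118) the call was lost without replicate 2 of the +Gln group (adjusted p = 0.0821) or of the -Gln group (0.0756).

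CTSL, a cysteine protease, was not called in any derivative. Its levels in DLD1 were 5.66 and 5.84 in Mut and 6.17 and 6.13 in WT cells +Gln, and 5.53 and 5.59 in Mut and 5.91 and 5.81 in WT cells -Gln. In HCT116 CTSL was at 5.43 and 5.29 in Mut and 5.71 and 5.49 in WT cells +Gln, and at 5.58 and 5.27 in Mut and 5.61 and 5.51 in WT cells -Gln. The HCT116 groups overlapped, and the average change was -0.12 ± 0.06 (adjusted p = 0.159).

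CTSB, another cysteine protease, was called in opposite directions in 2 derivatives. Its levels in DLD1 were 4.26 and 4.37 in Mut and 4.95 and 5.05 in WT cells +Gln, and 4.37 and 4.45 in Mut and 4.70 and 4.69 in WT cells -Gln. In HCT116 they were 4.56 and 4.54 in Mut and 4.63 and 4.77 in WT cells +Gln, and 4.63 and 4.65 in Mut and 5.14 and 5.02 in WT cells -Gln. CTSB fell in DLD1 WT cells (-0.30 ± 0.09, adjusted p = 0.0286) and rose in HCT116 WT cells (0.38 ± 0.09, adjusted p = 0.0125). The first call was lost without any of the 4 DLD1 WT arrays (adjusted p up to 0.145) and the other without replicate 1 of HCT116 WT +Gln (0.0945) or -Gln (0.0858). Both were also lost with eBayes trend and robust (adjusted p = 0.166 and 0.0912) and with each line fitted separately (0.0647 and 0.0624), and the first with no filter (0.0548).

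Hydrolases that rose on average were the sialidase NEU1 (0.51 ± 0.06, adjusted p = 3.32e-05), HEXA, the alpha subunit of beta-hexosaminidase (0.44 ± 0.06, adjusted p = 0.000159), and the tripeptidyl peptidase TPP1 (0.29 ± 0.09, adjusted p = 0.0215). NEU1 had 8 probe sets, of which 6 hold the same values as one another, and the probe sets other than the brightest changed by 0.48 to 0.51 on average. The call of TPP1 was lost without replicate 1 of DLD1 Mut +Gln (adjusted p = 0.0504), DLD1 WT -Gln (0.0532), HCT116 WT +Gln (0.0520) or HCT116 Mut -Gln (0.0518), or replicate 2 of HCT116 Mut +Gln (0.0516). In single derivatives TPP1 was called only in HCT116 WT cells (0.65 ± 0.18, adjusted p = 0.0281), which not every alternative kept. It was at -0.18 ± 0.18 in HCT116 Mut cells. GAA, the acid alpha-glucosidase, fell on average (-0.33 ± 0.07, adjusted p = 0.00259).

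Genes of the lysosomal membrane fell on average in 3 of 4 cases, beside 23.5% of all tested genes. None rose, beside 24.3% of all tested genes, and none did at an unadjusted p under 0.05. CLN3, a membrane protein that is mutated in juvenile Batten disease, was at 7.54 and 7.79 in Mut and 7.51 and 7.47 in WT DLD1 cells +Gln, and at 6.88 and 6.75 in Mut and 7.18 and 6.92 in WT cells -Gln. In HCT116 CLN3 was at 7.08 and 7.05 in Mut and 7.30 and 7.19 in WT cells +Gln, and at 5.76 and 5.77 in Mut and 6.96 and 6.94 in WT cells -Gln. The groups of no derivative overlapped, and HCT116 Mut -Gln stood lowest. The changes were -0.85 ± 0.11 in DLD1 Mut (adjusted p = 0.000203), -1.30 ± 0.11 in HCT116 Mut (adjusted p = 1.62e-05) and -0.29 ± 0.11 in HCT116 WT cells (adjusted p = 0.0954). In DLD1 WT cells (-0.44 ± 0.11, adjusted p = 0.0143) the call was lost without replicate 1 of the +Gln group (adjusted p = 0.0712) or replicate 2 of the -Gln group (0.126), and with each line fitted separately (0.0603).

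LAMP1, the main glycoprotein of the membrane, changed little. Its DLD1 levels were 8.72 and 8.80 in Mut and 8.74 and 8.89 in WT cells +Gln, and 8.61 and 8.68 in Mut and 8.59 and 8.60 in WT cells -Gln. In HCT116 LAMP1 was at 9.15 and 9.29 in Mut and 9.30 and 9.37 in WT cells +Gln, and at 8.94 and 9.04 in Mut and 9.23 and 9.28 in WT cells -Gln. No derivative was called, and LAMP1 fell on average (-0.16 ± 0.05, adjusted p = 0.0132), as did its relative LAMP2 (-0.17 ± 0.05, adjusted p = 0.0163). The calcium channel MCOLN1 was at -0.06 ± 0.07. Of the proton pump, which acidifies the lysosome, ATP6V1H rose on average (0.26 ± 0.06, adjusted p = 0.00463) and the membrane subunit ATP6V0D1 was at 0.03 ± 0.05. The call of the catalytic subunit ATP6V1A (0.11 ± 0.04, adjusted p = 0.038) was lost with no filter (0.0759) and held in only 4 of the 16 fits with 1 array left out, those without replicate 1 of DLD1 Mut +Gln, replicate 2 of DLD1 WT +Gln, replicate 2 of DLD1 WT -Gln or replicate 1 of HCT116 WT -Gln.

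Among the regulators, TFE3 was called higher in all 4 derivatives and MITF in those of DLD1, and the family's best known member TFEB was dim. TFE3 was at 6.95 and 6.75 in Mut and 6.79 and 6.93 in WT DLD1 cells +Gln, and at 7.35 and 7.22 in Mut and 7.39 and 7.24 in WT cells -Gln. In HCT116 TFE3 was at 5.65 and 5.55 in Mut and 5.73 and 5.54 in WT cells +Gln, and at 7.09 and 7.04 in Mut and 6.79 and 6.62 in WT cells -Gln. The HCT116 arrays +Gln were the 4 lowest. TFE3 rose in HCT116 Mut (1.47 ± 0.12, adjusted p = 9.01e-06) and WT cells (1.07 ± 0.12, adjusted p = 0.000122). In DLD1 Mut cells (0.44 ± 0.12, adjusted p = 0.013) the call was lost without replicate 2 of +Gln (adjusted p = 0.105) or replicate 1 of -Gln (0.0915), and in DLD1 WT cells (0.46 ± 0.12, adjusted p = 0.0134) without replicate 1 of +Gln (0.0886) or of -Gln (0.0970).

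MITF was brighter in DLD1 than in HCT116, where it lay near the lower end of the tested genes, the lowest mean tested being 1.65. Its DLD1 means +Gln, 3.61 in Mut and 3.60 in WT cells, were also below the median of the tested genes, 4.94. In DLD1 MITF was at 3.58 and 3.64 in Mut and 3.56 and 3.64 in WT cells +Gln, and at 5.45 and 5.56 in Mut and 4.64 and 4.38 in WT cells -Gln. In HCT116 it was at 1.86 and 1.89 in Mut and 1.84 and 1.74 in WT cells +Gln, and at 2.06 and 2.06 in Mut and 1.79 and 1.56 in WT cells -Gln. All DLD1 arrays were above all HCT116 arrays. MITF rose 3.73-fold in DLD1 Mut cells (1.90 ± 0.11, adjusted p = 1.89e-06), the largest rise of the 42 genes there, and 1.88-fold in DLD1 WT cells (0.91 ± 0.11, adjusted p = 0.000195). In HCT116 Mut and WT cells it was at 0.19 ± 0.11 and -0.12 ± 0.11 (adjusted p = 0.239 and 0.535).

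TFEB was at 1.72 and 2.64 in Mut and 1.32 and 2.20 in WT DLD1 cells +Gln, and at 2.12 and 2.05 in Mut and 1.54 and 1.44 in WT cells -Gln. In HCT116 TFEB was at 2.19 and 1.94 in Mut and 1.99 and 1.55 in WT cells +Gln, and at 3.20 and 2.16 in Mut and 1.86 and 2.34 in WT cells -Gln. The replicates differed by as much as the groups, and the average change was 0.15 ± 0.20 (adjusted p = 0.590).

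FLCN, FNIP1 and FNIP2 form the folliculin complex, which acts on the Rag GTPases of the lysosome, and RRAGD is one of these GTPases. FNIP1 was at 7.26 and 7.35 in Mut and 7.31 and 7.30 in WT DLD1 cells +Gln, and at 8.61 and 8.67 in Mut and 8.38 and 8.36 in WT cells -Gln. In HCT116 FNIP1 was at 6.87 and 6.55 in Mut and 6.96 and 6.93 in WT cells +Gln, and at 7.10 and 7.02 in Mut and 7.51 and 7.47 in WT cells -Gln. The groups of no derivative overlapped, and the rise was larger in DLD1, with 1.34 ± 0.10 in Mut and 1.06 ± 0.10 in WT cells (adjusted p = 7.24e-06 and 4.63e-05). HCT116 WT cells had 0.55 ± 0.10 (adjusted p = 0.00403). In HCT116 Mut cells (0.35 ± 0.10, adjusted p = 0.0243) the call was lost without replicate 2 of +Gln (0.19, adjusted p = 0.198), replicate 1 or 2 of -Gln (0.118 and 0.0573) or with each line fitted separately (0.0940). FNIP2 rose in DLD1 Mut (0.94 ± 0.14) and WT cells (0.71 ± 0.14) and was called lower in HCT116 WT cells (-0.50 ± 0.14, adjusted p = 0.0302), a call that was lost without any of the 4 HCT116 WT arrays (adjusted p up to 0.145) and with each line fitted separately (0.0623). FLCN and RRAGD rose on average (0.47 ± 0.07 and 0.71 ± 0.11, adjusted p = 0.000302 and 0.000261).

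The difference between the lines in the response was tested directly, as the mean change in DLD1 minus that in HCT116. It was called for 8 of the 42 genes (3 higher and 5 lower in DLD1), beside 19% of all tested genes (10% and 8.93%), so the share of the members was that of all tested genes. Of the 11197 genes above the median level, fitted alone, 3342 were called. MITF (1.37 ± 0.11, adjusted p = 6.91e-05), FNIP2 (0.98 ± 0.14, adjusted p = 0.00104) and FNIP1 (0.75 ± 0.10, adjusted p = 0.000885) had the higher change in DLD1. WIPI1 (-1.06 ± 0.13, adjusted p = 0.000506), TFE3 (-0.82 ± 0.12, adjusted p = 0.000945) and GABARAPL1 (-0.70 ± 0.11, adjusted p = 0.00153) had the higher change in HCT116. With log2(intensity + 8) the difference for GABARAPL1 was -0.46 (adjusted p = 0.00304). GLA (-0.38 ± 0.10, adjusted p = 0.025), which fell more in DLD1, and CTSB (-0.34 ± 0.09, adjusted p = 0.023) were called too, but lost the call with 1 array left out in 8 and 6 of 16 fits, with an adjusted p of up to 0.0571 and 0.0548. For GLA these were the fits without replicate 2 of DLD1 Mut +Gln, HCT116 Mut +Gln or HCT116 WT -Gln, or replicate 1 of DLD1 WT +Gln, DLD1 Mut -Gln, DLD1 WT -Gln, HCT116 WT +Gln or HCT116 Mut -Gln. For CTSB they were those without replicate 2 of DLD1 Mut +Gln, DLD1 WT +Gln or DLD1 WT -Gln, or replicate 1 of DLD1 Mut -Gln, HCT116 WT +Gln or HCT116 WT -Gln, and the call was also lost with eBayes trend and robust (0.132).

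Levels with glutamine differed between the lines for 29 of the 42 genes (20 higher and 9 lower in DLD1, over both genotypes), beside 47% of all tested genes (24.5% and 22.5%). Of the 11197 genes above the median level, fitted alone, 6848 were called. RRAGD was 5.11-fold lower in DLD1 (-2.35 ± 0.15, adjusted p = 3.36e-07) and ATG12 4.44-fold lower (-2.15 ± 0.06, adjusted p = 9.21e-10). GABARAPL1 was 4.27-fold higher in DLD1 (2.09 ± 0.08), CTSD 2.39-fold (1.26 ± 0.06) and TFE3 2.36-fold (1.24 ± 0.08). MITF was higher in DLD1 too, by 1.77 ± 0.08 on the log2 scale and by 0.80 with log2(intensity + 8), with HCT116 levels of only 1.74 to 1.89. Hydrolases were higher in DLD1 in 6 of 9 cases and lower in 1 (GAA, -0.68 ± 0.10), and membrane and pump genes higher in 5 of 7 and lower in 1 (LAMP1, -0.49 ± 0.06). These levels share arrays with the changes on withdrawal, and no relation between them was computed.

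The next comparisons ask whether the response differs between Mut and WT cells of a line. In HCT116 the change differed for 5 of the 42 genes (2 higher and 3 lower in Mut cells), beside 9.49% of all tested genes (4.75% and 4.75%). In DLD1 it differed for 1 (higher in Mut cells), beside 0.823% (0.255% higher). In HCT116 CTSA (-0.91 ± 0.12, adjusted p = 0.00154), CLN3 (-1.01 ± 0.16, adjusted p = 0.00414) and CTSD (-0.75 ± 0.12, adjusted p = 0.00414) fell more in Mut cells, and ATG4A rose more there (1.15 ± 0.19, adjusted p = 0.00551). With each line fitted separately the calls of ATG4A and CTSD were lost (adjusted p = 0.0547 and 0.0527).

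The fifth gene, ATG12, was at 5.19 and 5.23 in Mut and 5.29 and 5.26 in WT DLD1 cells +Gln, and at 5.59 and 5.38 in Mut and 5.27 and 5.23 in WT cells -Gln. In HCT116 ATG12 was at 7.33 and 7.27 in Mut and 7.46 and 7.51 in WT cells +Gln, and at 7.84 and 7.86 in Mut and 7.58 and 7.57 in WT cells -Gln. The difference of the changes in HCT116 (0.45 ± 0.12, adjusted p = 0.0471) was called only without replicate 1 or 2 of DLD1 Mut -Gln when 1 array was left out, and was not called in the other 14 fits (adjusted p up to 0.120). The call was also lost with no filter (0.0881), quantile normalization (0.0708), arrays shifted to 1 median (0.0509), the replicate block (0.0598) and each line fitted separately (0.126).

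In DLD1 the gene was MITF, whose rise was larger in Mut than in WT cells by 0.99 ± 0.16 (adjusted p = 0.0288). This call was lost without any of the DLD1 arrays except replicate 1 of DLD1 WT -Gln (adjusted p up to 0.0939), with eBayes trend and robust (0.0709) and with each line fitted separately (0.126). At an unadjusted p under 0.05 the response differed for 11 members in DLD1, beside 14.9% of all tested genes, and for 17 in HCT116, beside 24.6%.

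**Figure D5:**
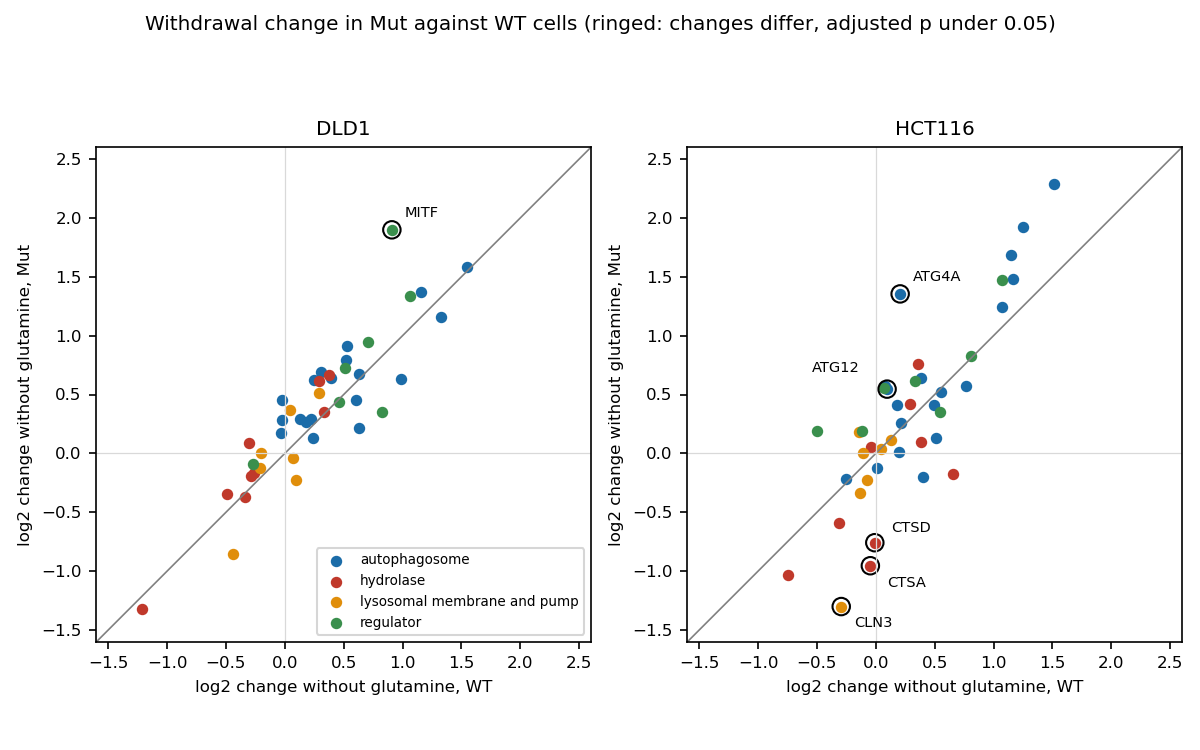
The log2 change on withdrawal in Mut cells (vertical axis) against that in WT cells (horizontal axis) of DLD1 (left) and HCT116 (right), 1 point per gene, with the line of equal change in grey. Ringed are the genes whose changes differed, MITF in DLD1 and ATG4A, ATG12, CTSA, CTSD and CLN3 in HCT116.

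With glutamine present 9.52% of the members differed between Mut and WT cells in each line. In DLD1 4 of 42 did (1 higher and 3 lower in Mut), beside 5.81% of all tested genes (2.6% and 3.2%), and in HCT116 4 did (all lower in Mut), beside 3.23% (1.12% higher and 2.12% lower). At an unadjusted p under 0.05 by limma 2 were higher and 9 lower in DLD1 Mut cells, beside 19.9% in either direction. In HCT116 Mut cells 0 were higher and 13 lower, beside 17%. The median difference of the members was -0.03 in DLD1 and -0.18 in HCT116, beside 0.02 and 0.00 over all tested genes. In DLD1 CTSB was 1.60-fold lower in Mut cells (-0.68 ± 0.09, adjusted p = 0.00125). SQSTM1 was higher in DLD1 Mut cells (0.45 ± 0.10, adjusted p = 0.0251), a call that was lost without replicate 1 or 2 of DLD1 Mut +Gln (adjusted p = 0.118 and 0.110) or replicate 2 of DLD1 WT +Gln (0.168). CTSD (-0.36 ± 0.08, adjusted p = 0.0308) lost its call without any of the 4 DLD1 arrays +Gln (adjusted p up to 0.181) or either array of DLD1 WT -Gln (0.0512). Fitted with DLD1 alone, the adjusted p was 0.0905 for SQSTM1 and 0.0924 for CTSD, which was also lost with no filter (0.0618).

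ATG9A in DLD1 was at 7.51 and 7.42 in Mut and 7.82 and 7.93 in WT cells +Gln and at 8.10 and 8.07 in Mut and 8.15 and 8.09 in WT cells -Gln. In HCT116 it was at 7.93 and 8.0 in Mut and 8.05 and 8.08 in WT cells +Gln and at 8.65 and 8.56 in Mut and 8.57 and 8.34 in WT cells -Gln. The DLD1 Mut cells +Gln were the lowest group (-0.41 ± 0.10 against WT, adjusted p = 0.034). With 1 array left out the call was lost in 10 of 16 fits (adjusted p up to 0.189), those without any of the 8 DLD1 arrays or either array of HCT116 WT +Gln, and with the mean of its probe sets the difference was 0.21 and not called (adjusted p = 0.799). The call was also lost with no filter (0.0616) and with each line fitted separately (0.0783).

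In HCT116 GABARAPL1 was 2.5-fold lower in Mut than in WT cells +Gln (-1.32 ± 0.11, adjusted p = 0.000138). WIPI1 was lower there too (-0.85 ± 0.13, adjusted p = 0.00696), as was OPTN (-0.83 ± 0.14, adjusted p = 0.00873). WIPI1 lost the call without replicate 2 of HCT116 WT +Gln (adjusted p = 0.0503), and OPTN without replicate 2 of HCT116 Mut +Gln (0.0750) or replicate 1 of HCT116 WT +Gln (0.0697). With each line fitted separately both calls were lost (0.0839 for WIPI1 and 0.0561 for OPTN). NEU1 was at 6.24 and 6.36 in HCT116 Mut and 6.78 and 6.92 in HCT116 WT cells +Gln, and at 7.09 and 7.02 in Mut and 7.17 and 7.24 in WT cells -Gln. In DLD1 NEU1 was at 6.88 and 6.90 in Mut and 6.70 and 7.04 in WT cells +Gln, and at 7.42 and 7.58 in Mut and 7.16 and 7.15 in WT cells -Gln. The HCT116 Mut cells +Gln were lowest (-0.55 ± 0.12 against WT, adjusted p = 0.0317), a call lost in 8 of 16 fits with 1 array left out (adjusted p up to 0.169), those without any of the 4 HCT116 arrays +Gln or either array of DLD1 Mut +Gln or DLD1 WT -Gln. It was also lost with no filter (0.0506), with the mean of its probe sets (0.0623) and with each line fitted separately (0.0922).

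Without glutamine the HCT116 derivatives differed in 23 of 42 genes (7 higher and 16 lower in Mut), beside 24.6% of all tested genes (12.3% and 12.4%), while in DLD1 2 genes differed (both higher in Mut), beside 10.3% (4.36% higher). In HCT116 6 of the 9 hydrolases were lower in Mut cells and none was higher, also at an unadjusted p under 0.05. CTSA was 2.38-fold lower (-1.25 ± 0.08, adjusted p = 9.42e-06), CLN3 2.28-fold (-1.19 ± 0.11, adjusted p = 6.43e-05), TPP1 2.10-fold (-1.07 ± 0.18, adjusted p = 0.00177) and CTSD 1.89-fold (-0.92 ± 0.08, adjusted p = 5.23e-05). ATG4A (0.93 ± 0.14, adjusted p = 0.000724) and MAP1LC3B (0.91 ± 0.16, adjusted p = 0.00239) were higher in Mut cells. The count was 15 and 9 without replicate 1 or 2 of HCT116 Mut -Gln, 13 without either array of HCT116 WT -Gln and 12 with each line fitted separately. In DLD1 MITF was higher in Mut cells (0.99 ± 0.11, adjusted p = 0.000443), as was GABARAPL2 (0.39 ± 0.10, adjusted p = 0.0291). GABARAPL2 lost this call without replicate 1 of DLD1 Mut -Gln (adjusted p = 0.182) or replicate 1 or 2 of DLD1 WT -Gln (0.152 and 0.0974), with no filter (0.0531) or with each line fitted separately (0.0974). These comparisons share arrays with those of withdrawal, and their values stand side by side.

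Other genes of the same pathways were taken from 4 lists, of which 129 genes were bright enough to test. These lists too were chosen with earlier results of these data known. On average over the 4 derivatives 38 of them rose and 36 fell (median change 0.05), beside 24.3% and 23.5% of all tested genes. Of 37 other autophagosome genes 20 rose and 3 fell (median 0.25), among them the lipid transporter ATG2B (0.84 ± 0.08, adjusted p = 7.35e-06) and RB1CC1, the scaffold of the ULK1 complex (0.71 ± 0.05, adjusted p = 5.05e-07). Of 31 other hydrolases 6 rose and 13 fell (median -0.12). The cysteine protease CTSC fell (-1.58 ± 0.05, adjusted p = 7.32e-09), and the acid sphingomyelinase SMPD1 rose (1.27 ± 0.11, adjusted p = 3e-06). Of 36 other membrane and pump genes 7 rose and 14 fell (median -0.07), with the membrane protein LAPTM4B lower (-0.82 ± 0.05, adjusted p = 4.23e-07) and the cholesterol transporter NPC1 higher (0.72 ± 0.06, adjusted p = 2.15e-06). Of 25 regulators of mTORC1 on the lysosome 5 rose and 6 fell (median 0.07), with the Rag GTPase RRAGC higher (0.83 ± 0.05, adjusted p = 3.16e-07) and LAMTOR2, of the complex that anchors these GTPases, lower (-0.39 ± 0.09, adjusted p = 0.00346).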

How the data were processed

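The 16 arrays are 8 groups of 2 samples that the labels call biological replicates; since nothing says how these were kept apart, p-values measure only the spread between them. The deposited table holds 1 linear intensity per probe set and array; no label or header read for this work names the normalization, which is not given in the sources used here. From there, the authors' intensity values were turned into log2 here, with no pseudocount. Symbols came from the platform's gene table (90 updated by Entrez identifier), and for the 632 genes with several probe sets the brightest was used. All columns of values were used.

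Genes in the upper 70% of mean log2 entered limma (version 3.58.1, R version 4.3.3), with lmFit and eBayes on a model of the 8 groups with 8 residual and 2.49 prior degrees of freedom and 13 contrasts, and were called at a Benjamini-Hochberg adjusted p under 0.05. The fit was tested on simulated data.

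The members and lists were chosen with earlier results of these data known. Any member could be named. Values on every array were given for up to 4 called members with the largest changes in each derivative and each Mut against WT comparison with glutamine, for members whose response differed between genotypes, and for SQSTM1, MAP1LC3B, GABARAPL1, ULK1, WIPI1, TFEB, TFE3, MITF, LAMP1, CTSD and CTSL. Of each other list the 2 called genes with the largest average change were named.

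Alternatives were no filter, genes above the median level, quantile normalization, shifting arrays to 1 median, log2(intensity + 8), averaging all probe sets of a gene, a replicate block over all arrays, eBayes with trend and robust, each line fitted separately (10 contrasts), and leaving out each array in turn, where a group left with 1 array is assumed to vary like the others.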

Additional observations from a re-analysis of the deposited data

Results flagged for a closer look

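Responses to withdrawal were called different between the lines or between the genotypes of a line in 14 cases, each by limma's test of the difference itself. Between the lines they were 8 of 42 members, beside 19% of all tested genes. In HCT116 they were 5, beside 9.49%, and in DLD1 1, beside 0.823%. In the main fit the counts between the lines and in HCT116 were thus at or near the share of all tested genes. At an unadjusted p under 0.05 by limma they were 14 between the lines and 17 in HCT116, beside 32.1% and 24.6%. The count in HCT116 was larger under some alternatives, as given below. Between the lines (DLD1 minus HCT116) the log2 differences were 1.37 for MITF, 0.98 for FNIP2, 0.75 for FNIP1, -1.06 for WIPI1, -0.82 for TFE3, -0.70 for GABARAPL1, -0.38 for GLA and -0.34 for CTSB. Between the genotypes (Mut minus WT) they were 0.99 for MITF in DLD1, and in HCT116 1.15 for ATG4A, 0.45 for ATG12, -0.91 for CTSA, -0.75 for CTSD and -1.01 for CLN3. Not every alternative kept the calls of GLA and CTSB between the lines, of MITF in DLD1, or of ATG4A, ATG12 and CTSD in HCT116. With 2 arrays a group no array was tested as standing apart from its group.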

How the results depend on the processing

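Of the 88 calls of members in the 4 withdrawal comparisons 56 held under every alternative, and of the 35 on average 31 did. The 2 scaling alternatives moved the median of all tested genes by at most 0.064 in any comparison (DLD1 Mut against WT response, arrays shifted to 1 median). With 1 array left out the members called were 22 to 26 in DLD1 Mut, 13 to 23 in DLD1 WT, 18 to 25 in HCT116 Mut and 11 to 17 in HCT116 WT cells on withdrawal, 32 to 35 on average, 6 to 9 for DLD1 minus HCT116 and 28 to 30 between the lines +Gln. For Mut against WT they were 1 to 4 (DLD1) and 2 to 4 (HCT116) +Gln and 1 to 3 and 9 to 22 -Gln, and for the difference in response 0 to 1 in DLD1 and 4 to 6 in HCT116. For Mut against WT +Gln, 2 (no filter) and 1 (lines separately) members were called in DLD1, and 8 (trend and robust) and 1 (lines separately) in HCT116. For Mut against WT -Gln in DLD1 the counts were 1 (no filter), 5 (above the median), 4 (shifted to 1 median), 4 (log2(intensity + 8)), 7 (trend and robust) and 1 (lines separately), and in HCT116 12 (lines separately). For the difference in response they were 0 in DLD1 (trend and robust, and lines separately, with 9 and 8 at an unadjusted p under 0.05 by limma), and in HCT116 12 (above the median), 11 (log2(intensity + 8)), 12 (trend and robust) and 2 (lines separately). Of all genes in these HCT116 fits, 2013 of 11197 and 2104, 2158 and 430 of 15676 were called, in the same order. With the mean of its 2 probe sets, ATG9A reversed in DLD1 Mut (-0.13) and HCT116 WT cells (-0.0165) on withdrawal and in DLD1 Mut against WT +Gln (0.21), where its second probe set had a mean log2 of 1.47, below the filter. The cause of the other shifts was not tested. Same-numbered replicates did not deviate together (correlations over 28 pairs of groups from -0.04 to 0.03), and a replicate block over all arrays lost 5 of the 199 calls of members over all comparisons and added 2, with 25, 21, 24 and 17 members called in the 4 derivatives. Precision is limited by 2 arrays a group, and no background level was measured here for dim genes such as TFEB or MITF in HCT116.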
